A study of Homo sapiens with 6 samples.

Results

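The 33 genes described here act in the synthesis of sterols and fatty acids. They were listed by symbol for these roles and read from a table of 26334 gene symbols. The sterol arm held 23 of them: 6 enzymes of the mevalonate steps (HMGCS1, MVK, PMVK, MVD, IDI1, FDPS), 11 of the squalene and sterol steps (FDFT1, SQLE, LSS, CYP51A1, TM7SF2, MSMO1, NSDHL, HSD17B7, EBP, SC5D, DHCR7), 3 regulators (INSIG1, SREBF2, SCAP) and 3 transport genes (STARD4, ABCA1, NPC1). The fatty acid arm held 10: ACLY, ACACA and FASN for synthesis, ELOVL6, SCD, FADS1 and FADS2 for elongation and desaturation, ACSL3 and LPIN1 for activation and use, and the regulator SREBF1. All 33 had a row in the table and 32 had enough counts to be tested. STARD4, a carrier of cholesterol between membranes, did not, with 0 counts in each WT library and 0, 2 and 1 counts in ZEB1-KO replicates 1, 2 and 3.

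Cells build cholesterol and long-chain fatty acids from a shared precursor, acetyl-CoA. In the sterol arm the mevalonate pathway makes isoprenoid units, which are joined to squalene, closed to lanosterol and trimmed step by step to cholesterol, while in the fatty acid arm acetyl-CoA is carboxylated, strung into palmitate, lengthened and desaturated. Transcription factors of the SREBP family, which the escort protein SCAP carries out of the endoplasmic reticulum when sterols are scarce and which INSIG proteins hold back when sterols are plentiful, drive the genes of both arms, and many tumour cells make these lipids at a high rate.

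RNA came from clones of MiaPaCa2, a human pancreatic ductal adenocarcinoma line with mesenchymal features. ZEB1-KO denotes 3 clones from which ZEB1, a zinc-finger transcription factor best known as a repressor of epithelial genes, was deleted with CRISPR-Cas9, and WT denotes 3 clones with the wild-type gene. All clones were grown in DMEM with 10% foetal bovine serum, which supplies cholesterol and fatty acids to the cells, and each descends from a cell sorted for GFP after electroporation with a plasmid that encodes Cas9 and GFP. Each library was made from 2000 cells of 1 clone by SMART-Seq2, so the spread within a group is a spread between clones and any difference private to a clone is part of it. Values of 3 libraries are given below in the order of replicates 1, 2 and 3, as CPM (counts-per-million, with each library total scaled by TMM) unless another unit is named.

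Library totals ran from 18909305 to 42876693 counts, so that a floor of 3 counts lay between 0.0687 and 0.150 CPM. This floor covers counting error only, since amplified reads without molecular identifiers are not independent molecules. The targeted gene, ZEB1, was counted 1486, 1011 and 830 times in the WT libraries and 67, 140 and 369 times in the ZEB1-KO libraries. The groups did not overlap, and its adjusted p was 0.0930 in edgeR's quasi-likelihood test. Where the deletion lies relative to the counted exons is not stated in the sources used, so the counts left in ZEB1-KO libraries do not show whether an intact transcript remained. The 8 ductal and epithelial markers summed to 2188 to 3293 CPM in the WT libraries and 4094 to 5318 CPM in those of ZEB1-KO. Of the 5 with enough counts to be tested, KRT8 and KRT18 lay higher in every ZEB1-KO library, KRT19 and MUC1 overlapped, and SOX9 overlapped in the other direction, with a log2 difference of -1.07. EPCAM and CDH1 had at most 2 and 4 counts in any library. The mesenchymal marker VIM was at 3045 to 3788 CPM in the WT libraries and 1342 to 2175 CPM in those of ZEB1-KO. The 4 fibroblast and 4 acinar and islet markers summed to at most 0.898 CPM in any library. Markers of serum response and stress (FOS, ATF3, DDIT3, ATF4) summed to 130 to 206 CPM in the WT libraries and 326 to 490.0 CPM in those of ZEB1-KO without overlap, and their part in the values below was not tested.

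No sterol or fatty acid synthesis gene passed an adjusted p of 0.05 between ZEB1-KO and WT clones. This held for 0 of 22 tested genes of the sterol arm and 0 of 10 of the fatty acid arm, beside 0.176% of all 13659 genes tested, 0.117% higher and 0.0586% lower (edgeR's quasi-likelihood test, Benjamini-Hochberg adjustment over all genes). The adjusted p values of the 32 genes ran from 0.134 to 0.925. In RNA from whole cultures, fewer cells that express a gene and less RNA of it per cell cannot be told apart. At an unadjusted p below 0.05 there were 3, beside 17.7% of all genes: EBP and ELOVL6 were higher, beside 9.64% of all genes, and FDPS was lower in ZEB1-KO clones, beside 8.04%. DESeq2 and edgeR's likelihood ratio test each called 1 of these genes, EBP, beside 7.12% and 4.52% of all genes, and limma-voom called 0. The log2 fold change was positive for 13 and negative for 19 of the 32 genes, with a median of -0.12, beside a median of -0.01 over all genes, of which 49.4% were positive. The median was -0.16 in the sterol arm, with 8 genes positive and 14 negative, and -0.02 in the fatty acid arm, with 5 on each side. On log2 of the deposited TPM plus 1 the median of the sterol arm was 0.17, beside 0.23 over all genes. The 2 groups of libraries overlapped for 29 of the 32 genes and did not for 3, beside 23.6% of all genes. EBP and CYP51A1 lay higher in every ZEB1-KO library than in any WT library (11.9% of all genes did so) and FDPS lay lower (11.7% of all genes).

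**Figure D1:**
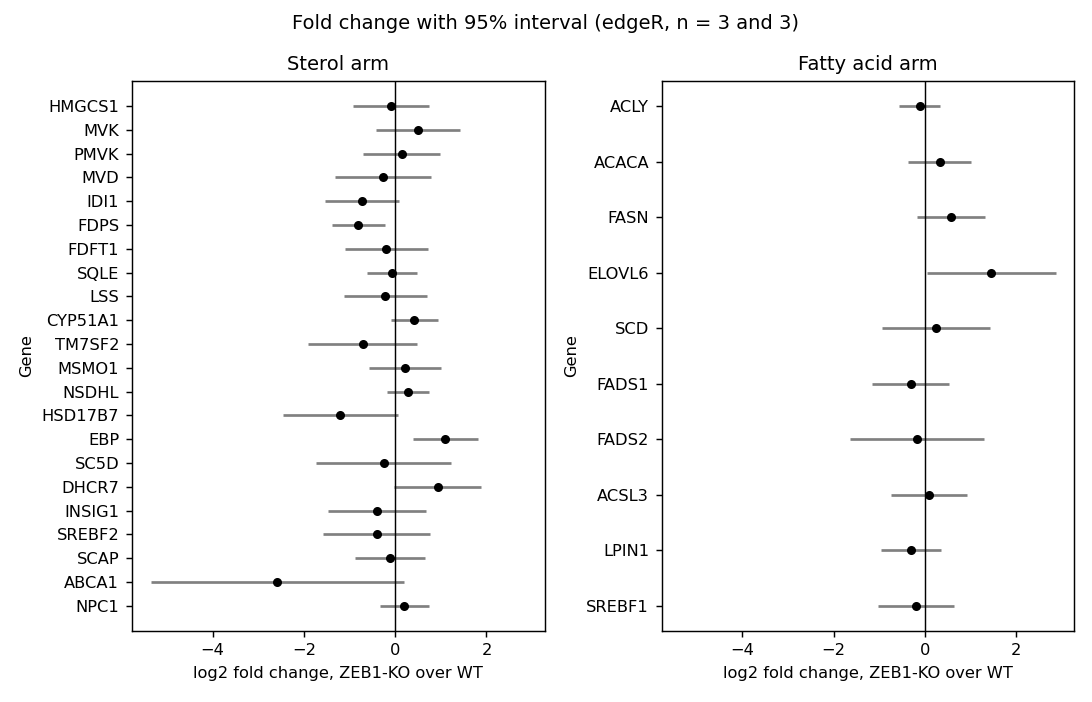
Log2 fold change of each tested gene, ZEB1-KO over WT (x axis), by gene (y axis), for the sterol arm (left) and the fatty acid arm (right). Points are edgeR estimates from 3 and 3 libraries and lines are 95% intervals, which include 0 for 29 of the 32 genes; the widest belongs to ABCA1, from -5.36 to 0.20.

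The promoters of 5 of these genes are printed to show the sequence. Whether the sequence bears on their RNA levels was not tested. FDPS, EBP and CYP51A1 are the 3 genes whose groups did not overlap, SREBF2 held the only match to the sterol regulatory element searched for, and ABCA1 differed most between clones. Each is the 250 bases before the RefSeq start of the gene in build GRCh38.p14, read 5′ to 3′ along the gene. Capitals mark the CCAAT box (CCAAT, or ATTGG on the other strand), the E-box that ZEB proteins are known to bind (CACCTG, or CAGGTG on the other strand) and the sterol regulatory element (TCACNCCAC on either strand). FDPS is at chr1:155308616-155308865, plus strand. EBP is at chrX:48521558-48521807, plus strand. CYP51A1 is at chr7:92134478-92134727, minus strand. SREBF2 is at chr22:41832855-41833104, plus strand. ABCA1 is at chr9:104928156-104928405, minus strand.
FDPS: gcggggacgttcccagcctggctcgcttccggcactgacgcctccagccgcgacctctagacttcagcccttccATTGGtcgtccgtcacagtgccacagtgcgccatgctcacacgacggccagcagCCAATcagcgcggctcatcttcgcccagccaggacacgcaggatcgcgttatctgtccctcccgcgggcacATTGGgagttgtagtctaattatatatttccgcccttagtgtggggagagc
EBP: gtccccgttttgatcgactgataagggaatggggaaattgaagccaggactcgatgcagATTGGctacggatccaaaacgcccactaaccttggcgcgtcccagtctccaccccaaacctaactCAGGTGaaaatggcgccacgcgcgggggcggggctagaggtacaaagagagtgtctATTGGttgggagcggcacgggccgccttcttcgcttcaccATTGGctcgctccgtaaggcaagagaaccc
CYP51A1: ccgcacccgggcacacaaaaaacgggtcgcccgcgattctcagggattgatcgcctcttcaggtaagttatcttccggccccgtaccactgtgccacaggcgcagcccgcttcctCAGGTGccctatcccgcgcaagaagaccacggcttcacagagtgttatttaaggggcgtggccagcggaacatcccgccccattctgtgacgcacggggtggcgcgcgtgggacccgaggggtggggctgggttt
SREBF2: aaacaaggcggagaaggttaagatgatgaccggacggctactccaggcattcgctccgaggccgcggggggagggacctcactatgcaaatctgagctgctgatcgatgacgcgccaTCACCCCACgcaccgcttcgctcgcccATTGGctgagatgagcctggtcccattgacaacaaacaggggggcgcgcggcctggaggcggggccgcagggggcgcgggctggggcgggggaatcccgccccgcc
ABCA1: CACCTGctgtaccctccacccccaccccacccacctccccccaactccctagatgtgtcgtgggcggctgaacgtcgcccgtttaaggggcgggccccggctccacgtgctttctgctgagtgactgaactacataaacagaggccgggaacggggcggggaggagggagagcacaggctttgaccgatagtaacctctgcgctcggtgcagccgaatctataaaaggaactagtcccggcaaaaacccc

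RefSeq promoters were matched for 30 of the 33 genes; FASN, SQLE and FDFT1 were not matched. A CCAAT box stood in 20 of the 30 windows, in 16 of 21 of the sterol arm and 4 of 9 of the fatty acid arm, beside 37.0% of 27305 genes with a promoter in the same table. FDPS and EBP each held 3 matches. The GC box (GGGCGG on either strand), the site known for Sp1, stood in 29 of the 30 windows beside 46.2% of all genes. For motifs, all genes are the 27305 with a promoter, whether or not they had enough counts to be tested. Of the 33 genes, 32 were tested, so the sets compared are unlike. The shares among tested genes alone were not computed. The letters searched for as the sterol regulatory element stood in 1, SREBF2, beside 1.09% of all genes. This match lay 133 bases before the start. The ZEB E-box stood in 7 (ABCA1, ACACA, CYP51A1, EBP, HSD17B7, SC5D, TM7SF2), or 23.3%, a share close to the 20.6% of all genes. Of those 7, the log2 fold changes were 1.10 for EBP, 0.42 for CYP51A1, 0.32 for ACACA, -0.25 for SC5D, -0.71 for TM7SF2, -1.20 for HSD17B7 and -2.58 for ABCA1. No motif of the 4 contains another, and a match says only that the letters are there. A window without a match lacks only those exact letters. Variant forms of a site and sites outside the window were not searched for. The search therefore cannot show that a gene lacks a sterol regulatory element.

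The mevalonate steps were led in level by FDPS, the farnesyl diphosphate synthase that supplies both sterols and protein prenylation. Per length it was the most abundant gene of the 31 with a deposited TPM, at a mean of 347 TPM over the 6 libraries. FDPS was at 356, 440.0 and 646 CPM in the WT libraries and 300.4, 259 and 263 CPM in those of ZEB1-KO. Every ZEB1-KO value lay below every WT value, and the ZEB1-KO clones were closer to each other than the WT clones were. The mean was 481 CPM ± 149 for WT and 274 CPM ± 22.8 for ZEB1-KO (SD, n = 3 each), 1.75-fold lower. The log2 difference was -0.81 with an SE of 0.25 and a 95% interval of -1.39 to -0.23. Its unadjusted p was 0.0118 and its adjusted p 0.160 in edgeR's quasi-likelihood test. Without WT replicate 3, the highest library, the log2 difference was -0.53 with an unadjusted p of 0.0512. The authors' deposited table lists FDPS at -0.82 on the log2 scale, with an adjusted p of 0.0964.

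IDI1, the isomerase that makes the substrate of FDPS, was at 80.5, 86.3 and 185 CPM in the WT libraries and 83.8, 54.8 and 73.9 CPM in those of ZEB1-KO. WT replicate 3 stood above the other 5, which overlapped. Its log2 difference was -0.73, with a 95% interval of -1.53 to 0.07. HMGCS1, which condenses acetoacetyl-CoA with acetyl-CoA at the entry of the pathway, was at 22.7, 34.9 and 45.8 CPM in the WT libraries and 42.0, 18.5 and 36.8 CPM in those of ZEB1-KO. The groups overlapped over nearly their whole range, and the log2 difference was -0.09 (95% interval -0.93 to 0.75). It became positive with scaling by library size alone, which moved the median over all genes to 0.14. The kinases MVK and PMVK and the decarboxylase MVD were low, between 1.45 and 13.6 CPM in all libraries, with log2 differences of 0.51, 0.14 and -0.27. Over the 6 mevalonate genes the median log2 difference was -0.18.

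Among the 11 genes of the squalene and sterol steps, EBP differed most in the upward direction. EBP, the sterol isomerase that shifts a double bond within the ring, was at 95.9, 201 and 104 CPM in the WT libraries and 290.4, 322 and 244 CPM in those of ZEB1-KO. All 3 ZEB1-KO clones lay above all 3 WT clones, and WT replicate 2 stood nearest to them. The mean was 134 CPM ± 58.1 for WT and 286 CPM ± 39.1 for ZEB1-KO (SD, n = 3 each), 2.14-fold higher. The log2 difference was 1.10 with an SE of 0.31 and a 95% interval of 0.39 to 1.80, and edgeR's quasi-likelihood test gave an unadjusted p of 0.00709 and an adjusted p of 0.134. By DESeq2 the adjusted p was 0.0244 and by edgeR's likelihood ratio test 0.0476. In the authors' deposited table EBP is the 1 gene past 0.05 among the 31 of these genes listed there, at 0.0470, beside 4.75% of the 11013 genes of that table. Leaving out each library in turn gave log2 differences between 0.92 and 1.52. EBP was also the second most abundant of the 31 genes per length, at a mean of 292 TPM.

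The tested genes beside EBP on chromosome X differed in the same direction. Of its 20 neighbours, the 10 nearest tested genes on each side in the RefSeq GRCh38.p14 gene order, 19 were higher in ZEB1-KO clones, with a median log2 difference of 0.96 and a range of -0.11 to 1.90. Of 13375 such overlapping windows over the genome, 0.202% had a median at or above this. Set against the mean of the 6 libraries, the neighbours' median log2 CPM was -0.97, 0.40 and -0.91 in the WT and 0.42, 0.75 and 0.44 in the ZEB1-KO libraries. EBP itself was at -0.98, 0.08 and -0.86 in the WT and 0.62, 0.77 and 0.37 in the ZEB1-KO libraries on the same scale. The neighbours thus followed EBP library by library, WT replicate 2 included, and their part in the difference of EBP was not tested. The Pearson correlation of EBP with the median of its neighbours over the 6 libraries was 0.97. For the other sterol and fatty acid genes it ran from -0.85 for TM7SF2 to 0.89 for SCAP, with 0.72 for NSDHL. NSDHL, another sterol gene of chromosome X, had neighbours with a median of 0.06 and a log2 difference of 0.28 of its own. The window of 20 genes was chosen after the values were seen.

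IDI1 and LSS also had neighbours that were mostly lower in ZEB1-KO clones, but did not follow them library by library. The 16 neighbours of IDI1 on chromosome 10 had a median log2 difference of -0.66, and 4 of them were positive. Of the same windows over the genome, 0.202% had a median at or below this, and the 113 tested genes of chromosome 10 before ZEB1 had a median of -0.43, with 89 of them negative. The median of the neighbours of IDI1 was highest in WT replicate 1, at 0.68 above the mean of the 6 libraries. IDI1 itself was highest in WT replicate 3, at 1.09. LSS lies on chromosome 21, whose 134 tested genes had a median log2 difference of -0.33, and its 17 neighbours had a median of -0.31. The neighbours of FDPS on chromosome 1 had a median of 0.21, opposite in sign to FDPS.

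**Figure D2:**
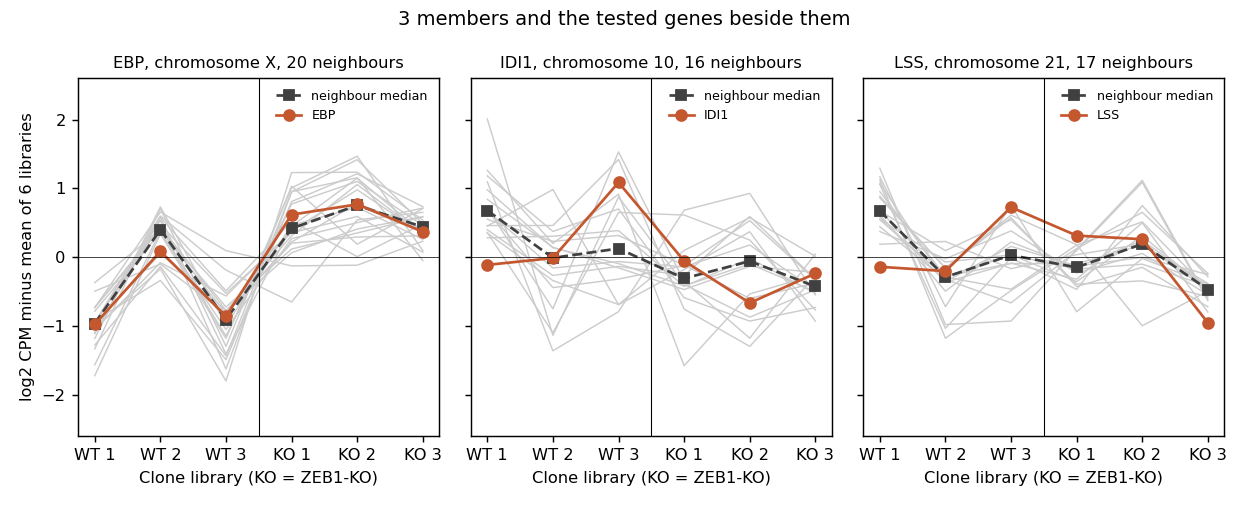
Log2 CPM minus the mean of the 6 libraries (y axis) in each clone library (x axis) for EBP, IDI1 and LSS (orange circles), the median of their neighbours (dark squares) and each neighbour (grey lines). EBP and the median of its neighbours run together, both low in WT replicates 1 and 3, while IDI1 and LSS peak in WT replicate 3 and the medians of their neighbours in WT replicate 1.

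The remaining genes of the squalene and sterol steps overlapped between groups, with the exception of CYP51A1. CYP51A1, the lanosterol demethylase, was at 48.6, 63.1 and 60.1 CPM in the WT libraries and 64.2, 95.4 and 70.4 CPM in those of ZEB1-KO. The gap between the groups was narrow, and its log2 difference of 0.42 had an unadjusted p of 0.10 in edgeR's quasi-likelihood test. FDFT1, the squalene synthase, was at 132, 201 and 434 CPM in the WT libraries and 245, 208 and 218 CPM in those of ZEB1-KO. The ZEB1-KO clones sat within the wide range of the WT clones, and the log2 difference was -0.19, or 0.43 without WT replicate 3. SQLE, the epoxidase that acts on squalene, was at 28.1, 31.6 and 42.8 CPM in the WT libraries and 29.6, 38.4 and 29.4 CPM in those of ZEB1-KO. Its log2 difference was -0.07 with a 95% interval of -0.63 to 0.48, one of the narrower ones. With scaling by library size alone it was 0.09, beside a median of 0.14 over all genes. LSS, which closes the ring, was at 26.3, 25.2 and 48.0 CPM in the WT libraries and 36.1, 34.8 and 14.9 CPM in those of ZEB1-KO. WT replicate 3 was the highest and ZEB1-KO replicate 3 the lowest, and the log2 difference was -0.21 (95% interval -1.12 to 0.69). On log2 of the deposited TPM plus 1 it was 0.02, beside a median of 0.23 over all genes.

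HSD17B7, a reductase of the demethylation complex, had the largest negative estimate of the enzymes, a log2 difference of -1.20 with an adjusted p of 0.301 in edgeR's quasi-likelihood test. It was at 16.4, 49.1 and 94.2 CPM in the WT libraries and 15.8, 25.1 and 28.5 CPM in those of ZEB1-KO, so that WT replicate 1 lay among the ZEB1-KO clones. Without WT replicate 3, the highest library, the log2 difference was -0.49. The count is uncertain, since reads can be split with its near-identical copy HSD17B7P2, which had a log2 difference of -1.29. DHCR7, the last reductase on the way to cholesterol, was at 20.1, 13.4 and 35.3 CPM in the WT libraries and 53.4, 52.7 and 25.3 CPM in those of ZEB1-KO. ZEB1-KO replicates 1 and 2 lay above all WT clones and ZEB1-KO replicate 3 among them, with a log2 difference of 0.93 and an adjusted p of 0.288. SC5D, the sterol desaturase, spread 8.11-fold among WT clones, from 4.99 to 40.5 CPM, against a fold between group means of 1.19. The log2 differences of MSMO1, NSDHL and TM7SF2 were 0.22, 0.28 and -0.71, and TM7SF2 was at 1.63 CPM in ZEB1-KO replicate 2 against 7.38 to 10.3 CPM elsewhere.

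The 3 regulators of the sterol arm had small negative estimates, with a median log2 difference of -0.39, none of them past an unadjusted p of 0.05. INSIG1, the sterol-sensing retention factor and itself an SREBP target, was at 14.8, 22.2 and 49 CPM in the WT libraries and 30.4, 21.5 and 13.6 CPM in those of ZEB1-KO. SREBF2, which encodes the SREBP that favours sterol genes, was at 4.05, 7.34 and 11.8 CPM in the WT libraries and 8.28, 6.64 and 2.55 CPM in those of ZEB1-KO. Both genes were lowest of the WT clones in replicate 1 and highest in replicate 3, and both were lowest of the ZEB1-KO clones in replicate 3. Their log2 differences were -0.39 (95% interval -1.46 to 0.68) and -0.41 (95% interval -1.59 to 0.77). Both estimates became positive without WT replicate 3, at 0.24 for INSIG1 and 0.03 for SREBF2. SCAP, at 9.06 to 20.4 CPM, had a log2 difference of -0.12.

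ABCA1, the exporter of cholesterol to apolipoprotein A-I and a known target of the sterol sensor LXR, was high in a single library. It was counted 1916, 31 and 54 times in WT and 38, 134 and 85 times in ZEB1-KO libraries, or 43.9, 0.956 and 2.19 CPM in the WT libraries and 1.90, 3.31 and 2.65 CPM in those of ZEB1-KO. WT replicate 1 stood far above every other clone, and the other 5 overlapped. The log2 difference was -2.58 (SE 1.21) and its adjusted p was 0.309 in edgeR's quasi-likelihood test, and without WT replicate 1 it turned to 0.77. ABCG1, a second LXR target and sterol exporter, was likewise highest in WT replicate 1, at 10.6 CPM against 0.679 to 2.79 CPM elsewhere. In the same library the monocyte marker CD14 was at 11.2 CPM against at most 2.20 CPM elsewhere, while the leukocyte marker PTPRC had 0 counts there, which allows up to 0.0687 CPM, and CD3E had 0 counts in every library. The 4 blood markers together summed to 14.8 CPM in WT replicate 1, 2.31 and 2.99 CPM in the other WT libraries and 4.0 to 6.88 CPM in the ZEB1-KO libraries, and their part in the level of ABCA1 was not tested. NPC1, which releases cholesterol from lysosomes, was even, at 13.9 to 20.2 CPM with a log2 difference of 0.20 (95% interval -0.34 to 0.74).

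**Figure D3:**
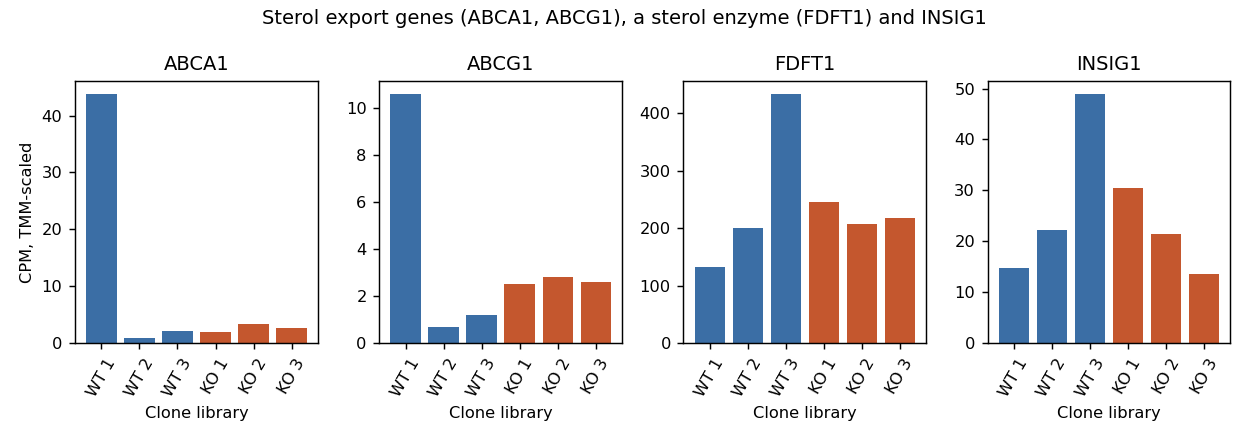
CPM (y axes, each from 0 with its own scale) in each clone library (x axes) of the exporters ABCA1 and ABCG1, the squalene synthase FDFT1 and the regulator INSIG1, with WT in blue and ZEB1-KO in orange. WT replicate 1 is the highest bar for both exporters, at 43.9 and 10.6 CPM, and WT replicate 3 the highest for FDFT1 and INSIG1, at 434 and 49 CPM.

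Of the synthesis genes of the fatty acid arm, FASN and ACACA kept close levels among WT clones and a wider spread among ZEB1-KO clones. FASN, the synthase that builds palmitate, was at 8.52, 8.14 and 8.43 CPM in the WT libraries and 12.7, 16.9 and 7.44 CPM in those of ZEB1-KO. ZEB1-KO replicates 1 and 2 lay above all WT clones and replicate 3 below them. The log2 difference was 0.56 with a 95% interval of -0.18 to 1.31 and an adjusted p of 0.399 in edgeR's quasi-likelihood test. ACACA, the acetyl-CoA carboxylase of the committed step, was at 30.6, 29.9 and 34.3 CPM in the WT libraries and 50.3, 44.9 and 23.1 CPM in those of ZEB1-KO. As with FASN, ZEB1-KO replicates 1 and 2 lay above all WT clones and replicate 3 below them, and the log2 difference was 0.32. ACLY, which makes acetyl-CoA from citrate, was the most abundant of the 3 per length, at a mean of 68.2 TPM. It varied little, from 159 to 212 CPM over all libraries (log2 difference -0.11, 95% interval -0.56 to 0.34). With scaling by library size alone its log2 difference was 0.04, beside a median of 0.14 over all genes.

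ELOVL6, which lengthens palmitate to stearate, had the largest positive estimate of all 32 genes. It was at 3.34, 1.33 and 2.67 CPM in the WT libraries and 12.7, 5.04 and 2.43 CPM in those of ZEB1-KO. ZEB1-KO replicate 3 lay within the WT range, and ZEB1-KO replicate 1 was the highest. The log2 difference was 1.45 with an SE of 0.62, an unadjusted p of 0.0455 and an adjusted p of 0.271 in edgeR's quasi-likelihood test. Without ZEB1-KO replicate 1 it was 0.61 with an unadjusted p of 0.279. SCD, the desaturase that makes oleate, was at 135, 152 and 377 CPM in the WT libraries and 419, 243 and 121 CPM in those of ZEB1-KO. Both groups covered almost the same range, and the log2 difference of 0.24 had a 95% interval of -0.94 to 1.42 and was -0.28 without ZEB1-KO replicate 1. The desaturases of polyunsaturated fatty acids, FADS1 and FADS2, had log2 differences of -0.31 and -0.18. FADS2 was near the limit of detection, at 0.187 to 1.13 CPM.

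SREBF1, whose product favours fatty acid genes, was at 16.8, 17.6 and 29.5 CPM in the WT libraries and 20.8, 23.9 and 10.7 CPM in those of ZEB1-KO. The ZEB1-KO clones reached both below and into the WT range, and the log2 difference was -0.21 (95% interval -1.04 to 0.62). On log2 of the deposited TPM plus 1 it was 0.04, beside a median of 0.23 over all genes. ACSL3, which activates fatty acids to acyl-CoA, and LPIN1, a phosphatidate phosphatase, had log2 differences of 0.08 and -0.31. The adjusted p of the 10 genes of this arm ran from 0.271 to 0.925.

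The spread of these genes between clones of the same group was wide. The highest library was at least 2 times the lowest for 17 of the 32 genes among WT clones and for 17 among ZEB1-KO clones. The fold between groups reached 2 for 4, but a ratio of group averages is an unlike measure to a range of single libraries. The median within-group SD of log2 CPM was 0.54 for the 32 genes and 0.38 for all 13659 genes, although the 32 genes were the more abundant, with a median log2 CPM of 4.88 against 3.44. WT replicate 3 was the highest WT library for 13 of the 17 enzymes of the mevalonate, squalene and sterol steps, beside 33.2% of all genes, and WT replicate 1 the lowest for 10 of 17, beside 34.3%. ZEB1-KO replicate 3 was the lowest ZEB1-KO library for 8 of the 10 genes of the fatty acid arm, beside 36.0% of all genes. It was the lowest for 8 of the 17 sterol enzymes. WT replicate 3 was also the highest WT library for 6 of the 10 fatty acid genes, all 3 sterol regulators and 23 of all 32 genes, and ZEB1-KO replicate 3 the lowest ZEB1-KO library for 20 of 32. These counts were read after the values were seen.

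**Figure D4:**
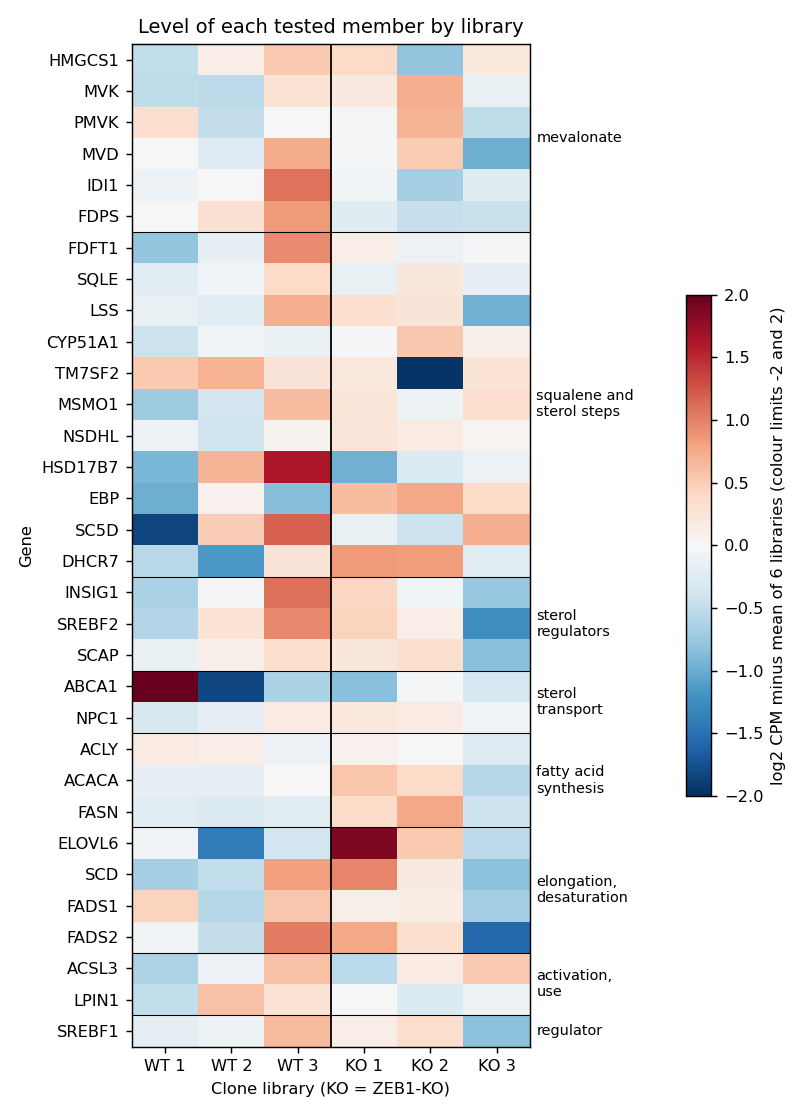
Log2 CPM minus the mean of the 6 libraries (colour, limits -2 and 2) for the 32 tested genes (rows, ordered by role) in each clone library (columns, WT left of the line). The column of WT replicate 3 is mostly red in the sterol enzymes, the column of ZEB1-KO replicate 3 mostly blue in the fatty acid arm, and no group of rows separates the 3 left from the 3 right columns.

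The levels of these genes tended to vary together from clone to clone within the groups. After the group means were removed, the median Pearson correlation over 6 libraries was 0.44 for the 136 pairs of the 17 sterol enzymes and 0.54 for the 45 pairs of the fatty acid arm. Over all 496 pairs of the 32 genes it was 0.40, against 0.00 over pairs of all genes tested, and 43.8% of the pairs were above 0.5, against 20.7%. These are descriptions over 6 libraries that share their depth and scaling within each library, and the pairs share genes. FDPS and FDFT1, the successive enzymes from isoprenoid units to squalene, had a correlation of 0.99, the highest of the 496 pairs. INSIG1 and NPC1 also had 0.99, LSS and SREBF1 0.98, and INSIG1 and SCD 0.95, so that close pairs joined the arms as well as genes within them. Other enzymes next to each other in the listed order of the sterol steps ran from -0.79 for CYP51A1 with TM7SF2 to 0.93 for IDI1 with FDPS. The lowest values of all pairs were -0.99 for ABCA1 with LPIN1, -0.91 for ACLY with ACSL3 and -0.85 for ABCA1 with SC5D.

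**Figure D5:**
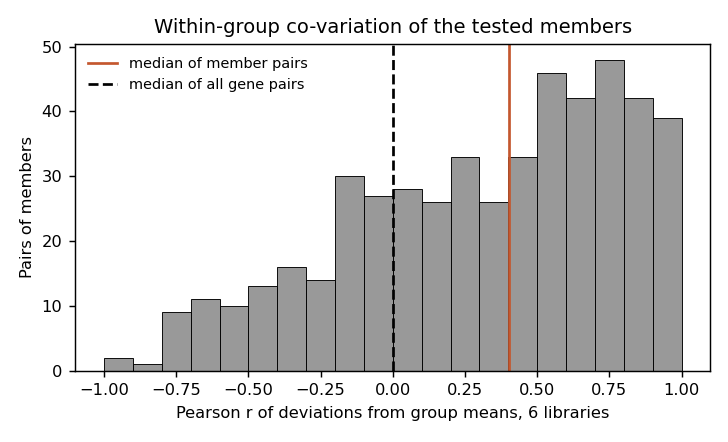
Number of gene pairs (y axis) by the Pearson correlation of their deviations from the group means over 6 libraries (x axis) for the 496 pairs of the 32 tested genes. The median of these pairs (orange line) is 0.40 and that of all gene pairs (dashed line) 0.00.

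Genes of these and related pathways outside the 33 were read from 6 further lists with 85 tested genes. Of the 85, 14 belong to fatty acid oxidation, which is described under other observations. In edgeR's quasi-likelihood test 0 of the 85 passed an adjusted p of 0.05. At an unadjusted p below 0.05, 10 were higher and 8 lower, beside 9.64% and 8.04% of all genes. The oxidation list held 1 of the higher and 6 of the lower genes. Of the 85, DESeq2 called 9 and edgeR's likelihood ratio test 6, beside 7.12% and 4.52% of all genes. In SREBP processing and sterol sensing, 4 of 8 tested genes were positive and 4 negative. TMEM97, a sterol-binding protein that responds to SREBP, was at 75.2, 66.9 and 87.3 CPM in the WT libraries and 115, 133 and 126 CPM in those of ZEB1-KO. These groups did not overlap, and its log2 difference was 0.70 with an adjusted p of 0.131 in edgeR's quasi-likelihood test and 0.0499 in DESeq2. In the isoprenoid branch, 4 of 13 were positive and 9 negative, with 1 higher and 1 lower at an unadjusted p below 0.05, beside 9.64% and 8.04% of all genes. These were FNTB, the farnesyltransferase beta chain, with a log2 difference of 1.23 at 0.284 to 1.28 CPM, and HSD17B7P2.

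In the list of LXR, sterol export and storage, 8 of 13 were positive and 5 negative, with a median log2 difference of 0.23. SCARB1, the receptor for high-density lipoprotein, STARD3, an endosomal cholesterol carrier, and LPCAT3, an acyltransferase of phospholipids and LXR target, were higher at an unadjusted p below 0.05, which makes 3 of 13 beside 9.64% of all genes. Their log2 differences were 1.38, 1.10 and 1.16. SCARB1 was at 5.93, 5.27 and 3.73 CPM in the WT libraries and 13.6, 20.3 and 5.01 CPM in those of ZEB1-KO, so that ZEB1-KO replicate 3 lay within the WT range. LPCAT3 was at 14.3, 13.7 and 16.2 CPM in the WT libraries and 11.7, 58.6 and 28.5 CPM in those of ZEB1-KO. Its ZEB1-KO replicate 1 lay below every WT clone. The groups of STARD3 did not overlap. MYLIP, an LXR target, did not share the peak of ABCA1 and ABCG1, and was lowest in WT replicate 1, at 4.35 CPM against 8.97 to 22.4 CPM elsewhere. ABCG1 and MYLIP were singled out after their values were seen.

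In the list of fatty acid supply, elongation and desaturation, 13 of 22 were positive and 9 negative, with a median log2 difference of 0.17. ELOVL7, an elongase of long-chain fatty acids, was at 1.88, 2.22 and 2.43 CPM in the WT libraries and 9.48, 5.93 and 27.5 CPM in those of ZEB1-KO. Its log2 difference was 2.72 with an adjusted p of 0.0942 in edgeR's quasi-likelihood test and 2.7e-05 in DESeq2. ELOVL1, an elongase of very long chains, was at 90.3, 72.4 and 56.0 CPM in the WT libraries and 164, 203 and 143 CPM in those of ZEB1-KO. Its log2 difference was 1.22 with an adjusted p of 0.0942 in edgeR's quasi-likelihood test and 0.00133 in DESeq2. MID1IP1, which promotes the polymerisation of acetyl-CoA carboxylase, was at 0.0916, 0.339 and 0.203 CPM in the WT libraries and 1.70, 1.68 and 0.996 CPM in those of ZEB1-KO. Its log2 difference was 2.79 with an adjusted p of 0.0891 in edgeR's quasi-likelihood test and 0.00216 in DESeq2, and its own neighbours on chromosome X had a median of 0.54. For these 3 genes every ZEB1-KO library lay above every WT library, in contrast to ELOVL6, FASN and SCD.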

How the data were processed

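Messenger RNA was measured in 6 libraries, 3 from ZEB1-KO and 3 from WT clones, grouped and numbered by their titles. The authors deposited gene counts by symbol, TPM values for 11013 of the symbols, and their own result table, which per the file headers holds log2 fold changes and mean log2 CPM, the likelihood ratio as a score, and p-values with their adjusted form. TopHat2 2.1.0, HTSeq 0.6.1 and edgeR 3.2.2 with hg19 and GRCh37 are named in the submitters' processing notes. Gene lengths behind TPM and that table's filter: not given in the sources used here. SMART-Seq2 records no strand.

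The deposited counts were fitted with edgeR 4.0.16 in R 4.3.3: filterByExpr (minimum count 10, total 15), TMM scaling, glmQLFit and glmQLFTest on the group alone, 2-sided, Benjamini-Hochberg over 13659 genes, threshold 0.05. Log2 CPM has a prior count of 2. The scripts were tested on simulated data. Pairs of libraries differed by a chi-square per gene of 127 or more, beyond sampling noise. Alternatives used DESeq2 1.42.0 and limma 3.58.1, other scalings and filters, TPM, a replicate block, and each library left out.

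The genes and lists were chosen with earlier results of these data known. Values in every library were given for genes at an unadjusted p below 0.05 and for HMGCS1, SQLE, LSS, INSIG1, SREBF1, SREBF2, FASN, SCD and ABCA1; IDI1, FDFT1, CYP51A1, HSD17B7, DHCR7 and ACACA were added after their values were seen. From each further list, called genes and up to 3 with the smallest unadjusted p below 0.05 were named.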

Additional observations from a re-analysis of the deposited data

How the results depend on the processing

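Over the 13659 genes, 24 were called, against 134 without a filter, 935 with DESeq2, 617 with the likelihood ratio test, 101 with log2 of TPM plus 1, 94 with TPM plus 0.1, 80 with TPM plus 1 without a filter, and 5 to 25 without each library in turn. Of the sterol and fatty acid genes, 1 was called with DESeq2 and 1 with the likelihood ratio test, EBP of the sterol arm in both, and 0 under every other alternative run. Of the related lists, 1 was called without a filter, 9 with DESeq2 and 6 with the likelihood ratio test. With a replicate block, 20 genes and 0 of the sterol and fatty acid genes were called. Same-numbered libraries deviated from their group means with correlations of 0.0219, 0.00714 and 0.224. Pairs with different numbers lay between -0.124 and 0.104. Deviations from means of 3 libraries cannot show whether the numbers pair the clones, and the labels do not say.

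Scaling by library size alone moved the median log2 difference of all genes from -0.01 to 0.14, and TPM moved it to 0.20 to 0.27. The median of the sterol arm, -0.16 as reported, was 0.17 with TPM plus 1, with and without a filter, and 0.18 with TPM plus 0.1. Estimates near 0 turned positive: HMGCS1 (0.060 by library size, 0.14, 0.16 and 0.14 with the 3 TPM settings), SQLE (0.088, then 0.20, 0.21 and 0.20), LSS (0.023, 0.019 and 0.023 with TPM) and SREBF1 (0.037, 0.034 and 0.037 with TPM). Of the 32 genes, 28 kept their sign under the other scalings of the counts, except HMGCS1, SQLE, SCAP and ACLY by library size, and 16 without each library in turn. Leaving out 1 library turned ABCA1 (-3.13 to 0.77), HMGCS1 (-0.32 to 0.19), INSIG1 (-0.70 to 0.24), LSS (-0.41 to 0.15), SCD (-0.28 to 0.87), SQLE (-0.21 to 0.13), SREBF1 (-0.44 to 0.10) and SREBF2 (-0.74 to 0.03). It also turned PMVK, MVD, FDFT1, MSMO1, SC5D, SCAP, FADS2 and ACSL3. Leaving out WT replicate 3 turned HMGCS1 (0.17), LSS (0.15), SREBF1 (0.10), SQLE, INSIG1, SREBF2, MVD, FDFT1, SC5D, SCAP and FADS2. Without ZEB1-KO replicate 3, LSS (0.096), SREBF1 (0.071), MVD, SCAP, FADS2 and ACSL3 turned. Leaving out ZEB1-KO replicate 2 turned HMGCS1 and PMVK, and leaving out WT replicate 2 turned PMVK. Without WT replicate 1, ABCA1, SCD (-0.00064), MSMO1 and ACSL3 turned, and without ZEB1-KO replicate 1, SCD turned. The cause was not tested.

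With 3 clones a group, the 95% interval included 0 for 29 of the 32 genes, and differences within these intervals could not be detected. Each group difference includes what separates single clones.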

Other observations

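Genes of fatty acid oxidation, the pathway that burns fatty acids in mitochondria, were read beside those of synthesis. Of 14 tested, 8 were negative and 6 positive, with a median log2 difference of -0.28 against -0.01 over all genes; 0 passed an adjusted p of 0.05 in edgeR's quasi-likelihood test, 6 were lower and 1 higher at an unadjusted p below 0.05, beside 8.04% and 9.64% of all genes, and DESeq2 called 2 lower and 1 higher, beside 7.12% of all genes in either direction. ETFB, a chain of the electron carrier that takes electrons from acyl-CoA dehydrogenases, was at 189, 216 and 186 CPM in the WT libraries and 101, 121 and 98.4 CPM in those of ZEB1-KO, a log2 difference of -0.89 with an adjusted p of 0.0980 in edgeR's quasi-likelihood test and 0.00734 in DESeq2. ECI1, an isomerase needed for unsaturated fatty acids, was at 31.0, 21.9 and 22.8 CPM in the WT libraries and 9.33, 11.5 and 14.7 CPM in those of ZEB1-KO, a log2 difference of -1.09. HADH, a dehydrogenase of short chains, went the other way, at 55.0, 57.4 and 63.1 CPM in the WT libraries and 108, 86.6 and 94.1 CPM in those of ZEB1-KO, a log2 difference of 0.72. The other 4 at an unadjusted p below 0.05, named after their values were seen, were CPT1A, the carnitine acyltransferase that admits fatty acids to mitochondria (-0.88), ACADM, the medium-chain dehydrogenase (-0.76), DECR1, a reductase for unsaturated chains (-0.88), and PPARA, a nuclear receptor that drives oxidation genes (-0.81). Groups did not overlap, with ZEB1-KO below, for 7 of the 14, beside 11.7% of all genes.

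Genes of acyl-CoA formation, glycerolipids and lipid storage showed 8 positive and 7 negative estimates among 15 tested, with a median log2 difference of 0.02. In edgeR's quasi-likelihood test 0 of the 15 had an unadjusted p below 0.05, beside 17.7% of all genes. DESeq2 called 0, beside 7.12% of all genes. Groups did not overlap for 1, LPIN2, with ZEB1-KO below, beside 11.7% of all genes.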
